A study of Mus musculus with 6 samples.

Results

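The genes described here encode the machinery that makes microRNAs and carries out silencing by them: Drosha, Dgcr8, Xpo5, Dicer1, Tarbp2, Ago1, Ago2, Ago3, Tnrc6a and Tnrc6b. They were chosen by name, and all 10 were found, each once, among the 54532 genes of the deposited table. Expression was measured by RNA sequencing in the myocardium of wild-type C57BL/6 mice of 18 weeks, whose hearts the series describes as hypertrophic. The 3 control samples had received AAV9-EGFP, an adeno-associated virus of a serotype that enters heart muscle, carrying a green fluorescent protein. The 3 TuD samples had received AAV9-anti-miR-199a-TuDs, the same type of virus carrying tough decoys, structured RNAs that hold miR-199a away from its targets. Both groups had therefore received the virus. The description of hypertrophy covers the series, and whether its degree was alike in the groups was not tested. How hypertrophy was induced, the promoter and dose of the virus, the sex of the mice and whether each sample came from a separate animal are not given in the sources used here, so p-values measure only the spread between these samples, which may be technical.

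A microRNA is cut from a long primary transcript in the nucleus by the Microprocessor, in which Drosha is the nuclease and Dgcr8 the double-stranded RNA-binding partner. Exportin 5 (Xpo5) carries the hairpin to the cytoplasm, where Dicer1, helped by Tarbp2, trims it to a short duplex. One strand is then held by an Argonaute protein, and Argonaute binds a GW182 protein (Tnrc6a, Tnrc6b or Tnrc6c), which brings in the enzymes that shorten the poly(A) tail of the target and remove its cap. Loss of Dicer1 or Dgcr8 from mouse heart muscle is known to lead to heart failure. In the study the microRNA itself was held back; the comparison here asks what happened to the transcripts of the machinery around it.

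The microRNA bound by the decoys has a pair of mature arms, shown because their seeds are the letters searched for in the members' 3′ UTRs. The capitals mark the seed, bases 2 to 8. Both arms are made from Mir199a-2 on chromosome 1 and from Mir199a-1 on chromosome 9, and the sequences are those of RefSeq (GRCm38.p6), for example from chr1:162217844-162217866 and chr1:162217883-162217904 on the plus strand.
miR-199a-5p: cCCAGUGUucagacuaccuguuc
miR-199a-3p: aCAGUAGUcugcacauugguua
The arms have different seeds. In a transcript, a match to the 5p seed reads ACACTGG, and a match to the 3p seed reads ACTACTG. Searched on the transcript strand were these letters alone, the same letters followed by A (ACACTGGA and ACTACTGA, 8 bases), and the last 6 of them followed by A (CACTGGA and CTACTGA). Overlapping forms were counted once, as the longest.

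In the longest annotated 3′ UTR of each gene (GENCODE release M21, GRCm38), 4 of the 10 members held at least 1 such match: Ago1 with 4, Ago3 with 4, Tnrc6b with 2 and Ago2 with 1. Among the tested genes with an annotated 3′ UTR, 31.7% of 9549 held a match to either arm. The members have long 3′ UTRs, with a median of 3098 bases against 1102 for those genes, and the 4 with a match have at least 4491. Of the 408 tested genes with a 3′ UTR of that length or more, 77.7% held a match, so a match is common in 3′ UTRs of this length. No match was found in Drosha, Dgcr8, Xpo5, Dicer1, Tarbp2 or Tnrc6a, which says only that these letters are absent from those windows. The 8-base form was present in Ago1 and Tnrc6b, against 6.83% of the tested genes. Most of those genes have far shorter 3′ UTRs, and the share among genes with 3′ UTRs of like length was not computed for this form. Those 2 stretches of 30 bases, and the only match in Ago2, the member with the largest fitted change, are shown with the match in capitals.
Ago1, chr4:126436712-126436741, minus strand, to miR-199a-3p: tttgagacttaACTACTGAccatgtgggtt
Tnrc6b, chr15:80938180-80938209, plus strand, to miR-199a-5p: tgagttgtgggACACTGGAatgctttcata
Ago2, chr15:73096306-73096335, minus strand, to miR-199a-5p: tgagcctaaagACACTGGcagcgtgcagcc
A match to the letters is no evidence of binding.

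Levels are given as normalised FPKM, the fragments per kilobase of gene and megaread that the authors deposited, divided by a size factor of each library. A log2 fold change is TuD minus control on the log2(normalised FPKM + 0.5) scale, which understates the change of low genes. Libraries held 15.2 to 18.2 M reads (M, megareads), the TuD libraries fewer (16.0 ± 0.731 M against 18.1 ± 0.115 M, SD, n = 3). The deposited FPKM imply divisors of 0.943 to 1.06 times these read numbers (1.04 to 1.06 in the controls, 0.943 to 1.01 in TuD libraries), with which 3 reads over 10 kilobases equal an FPKM of 0.0155 to 0.0209. Heart muscle markers were abundant in every library, with 5 of 5 detected, 2 of them called higher, and a summed level of 18632 to 19315 in the controls and 17345 to 21190 in TuD samples. The summed level of 5 macrophage markers was 85.9 to 104 and 94.2 to 174, that of 5 erythroid markers 1142 to 1607 and 1370 to 3281, and that of 5 fibroblast markers 114 to 125 and 120 to 172. Smooth muscle and pericyte markers summed to 124 to 167 and 124 to 240, endothelial markers to 160 to 199 and 145 to 214, and 3 germ cell markers to 0.0138 to 0.0803 and 0.221 to 0.392. Of the other lists, 2 erythroid markers were called higher, 1 fibroblast marker higher and 1 lower, and 1 smooth muscle and pericyte marker higher. No macrophage or endothelial marker was called, and the germ cell markers were too low to be tested. For all these lists their part in the results was not tested. In bulk tissue, fewer cells of a type and less RNA per cell cannot be told apart. Transcripts of Y-linked genes summed to FPKM values of 8.32 to 9.59 in the controls and 12.5 in TuD replicate 3, but to 0.0254 and 0.00711 in TuD replicates 1 and 2. The labels do not give sex, so in those libraries a difference in sex and the treatment cannot be told apart, for any gene described here.

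Of the 10 members, 2 fell in TuD samples, Xpo5 and Ago2, and none rose. At an unadjusted p under 0.05, and by limma-voom on reads, 3 were lower (Dgcr8 added) and 0 higher. Limma-voom called 1698 of all 10460 tested genes lower. The share of all tested genes lower at an unadjusted p under 0.05 was not computed. In the adjusted limma test a further 6 members were tested and did not pass, and Ago3 and Tnrc6b were too low to enter. That test asked for an FPKM of at least 1 in 3 of the 6 libraries. Over all 10460 tested genes 14.2% were called lower and 14.8% higher, so 2 of 8 tested members lower and 0 higher is a small count beside a broad change of the transcriptome. The median log2 fold change was -0.20 over the 8 tested members and 0.01 over all tested genes. Rescaled to TPM, which shifts the median of all tested genes to -0.36, 4202 genes were lower and 438 higher, against 1489 and 1550 here, and 4 members were lower (Xpo5, Ago2, Dgcr8 and Ago1, the last at -0.69). In 5 of the 10 members (Dgcr8, Xpo5, Ago1, Ago2 and Tnrc6b) every TuD value lay below every control value, 4 of them among the 8 tested. Over all tested genes this was so for 24.4%. Dgcr8, in this count and in the 3 lower above, entered the test only through the controls, so its groups were bound to be apart. The other 5 members overlapped between the groups, and in no member did every TuD value lie above every control value. With the minimum lowered to an FPKM of 0.2, a choice made after seeing the data, all 10 members could be tested and again 2 were lower, against 10% of all genes.

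**Figure D1:**
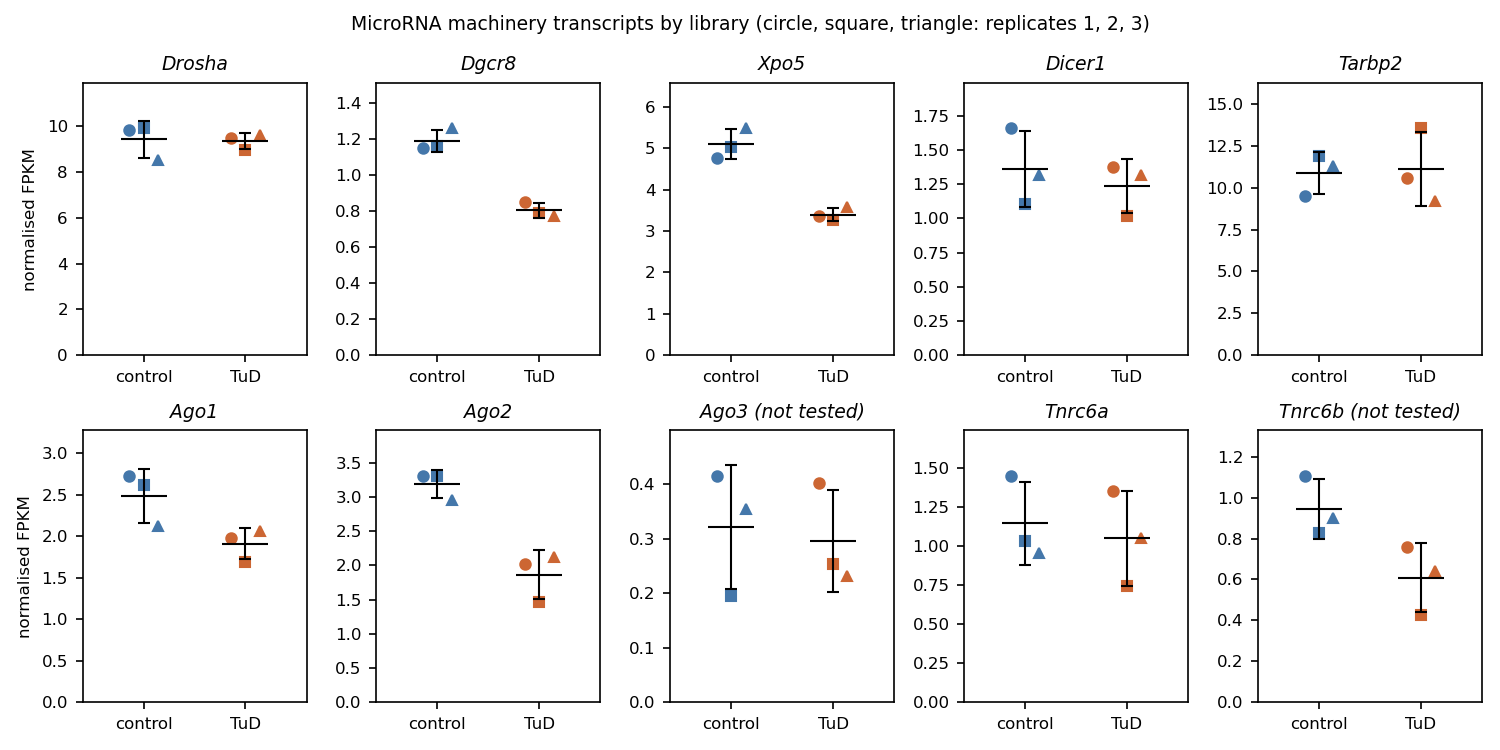
Normalised FPKM of each of the 10 members in the 3 control and 3 TuD libraries in 10 panels with separate linear axes from 0; points are libraries, and the lines are the group mean and SD. The groups are apart for Dgcr8, Xpo5, Ago1, Ago2 and Tnrc6b, with the TuD libraries lower, and overlap for the other 5.

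The Microprocessor pair differed in level and in their values by group. Drosha (ENSMUSG00000022191, chr15:12824815-12935291, mm10) stood at 9.86, 9.92 and 8.52 normalised FPKM in control replicates 1 to 3, in that order, and at 9.49, 8.99 and 9.62 in the TuD replicates. The groups overlapped throughout, with a log2 fold change of -0.01 (SE 0.10, 95% interval -0.25 to 0.23, adjusted p = 0.966).

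Dgcr8 (ENSMUSG00000022718, chr16:18253948-18289246) was far lower, at 1.15, 1.16 and 1.26 in the controls and 0.849, 0.791 and 0.771 in TuD samples. No TuD library reached a control, and the TuD mean was 67.6% of the control mean. The log2 fold change was -0.37 (SE 0.13, 95% interval -0.67 to -0.08) and did not pass, with an adjusted p of 0.0608. Dgcr8 reached the minimum of 1 only through the controls, and a gene that enters the test through the higher group alone is bound to differ. Its call depends on the method: limma-voom on the recovered reads, of which Dgcr8 had 88 to 184 per library, gave -0.56 (adjusted p = 0.0265), while removing the trend with gene length gave -0.23 (adjusted p = 0.208). The 3′ end of Dgcr8 runs into Trmt2a on the other strand, a tRNA methyltransferase gene whose values were slightly higher in TuD samples (3.57, 3.89 and 3.68 against 3.99, 4.05 and 3.93, adjusted p = 0.517); whether reads were counted by strand is not given in the sources used here.

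Set against each other, Drosha exceeded Dgcr8 by a factor of 8.58, 8.55 and 6.77 in the controls and 11.2, 11.4 and 12.5 in the TuD libraries. This ratio of levels does not depend on how a library is scaled, and its groups did not overlap. Since the groups of Drosha overlapped, the ratio mainly restates the difference in Dgcr8. Dgcr8 reached the minimum only through the controls, so the ratio is no separate evidence. As background, the Microprocessor is known to cut hairpins in the Dgcr8 transcript itself, and Dgcr8 protein to stabilise Drosha; neither was measured here.

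At the export step the transcript of the carrier was lower. Xpo5 (ENSMUSG00000067150, chr17:46202782-46243598), the carrier that takes precursor hairpins out of the nucleus with Ran and GTP, stood at 4.77, 5.04 and 5.48 normalised FPKM with AAV9-EGFP and at 3.37, 3.26 and 3.57 with the decoys. Even the highest TuD library was well below the lowest control, and the TuD mean was 66.7% of the control mean (3.40 ± 0.159 against 5.10 ± 0.363, SD, n = 3). The log2 fold change was -0.52 (SE 0.11, 95% interval -0.76 to -0.27, adjusted p = 0.0105). It passed without each library in turn (adjusted p 0.0114 to 0.0487). A covariate for the absence of Y-linked transcripts ended the call (-0.46, adjusted p = 0.0798); in that fit the group difference rests on TuD replicate 3. Between 323 and 715 reads per library lie behind these values. Ran itself, which Xpo5 needs to hold its cargo, was at 49.6 ± 1.01 in the controls and 56.6 ± 5.96 in TuD samples (SD, n = 3; log2 fold change 0.18, adjusted p = 0.227).

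The Dicer step showed no difference past the test. Dicer1 (ENSMUSG00000041415, chr12:104687742-104751952), the nuclease that removes the hairpin's loop, stood at 1.66, 1.11 and 1.32 in the controls and 1.38, 1.02 and 1.32 in the TuD libraries. Control replicate 1 was the highest library and TuD replicate 2 the lowest, and the groups overlapped. The log2 fold change was -0.10 (SE 0.16, 95% interval -0.47 to 0.28, adjusted p = 0.684). Tarbp2 (ENSMUSG00000023051, chr15:102518192-102523676), a double-stranded RNA-binding partner of Dicer1, was the most abundant member on average, at 9.50, 11.9 and 11.3 in the controls and 10.6, 13.6 and 9.23 in TuD samples. Its highest and its lowest library were both TuD libraries, and the log2 fold change was 0.02 (SE 0.16, 95% interval -0.34 to 0.37, adjusted p = 0.946). The interval for Dicer1 still holds the value fitted for Dgcr8, so a like change in Dicer1 is not excluded at this spread.

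Among the Argonautes the clearest difference was in Ago2 (ENSMUSG00000036698, chr15:73095844-73184935), the family member with slicing activity in mammals. It stood at 3.31, 3.31 and 2.95 normalised FPKM in the controls and 2.02, 1.46 and 2.12 in the TuD libraries. The groups did not overlap, and the TuD mean was 58.5% of the control mean, the lowest percentage of the 10 members. The log2 fold change was -0.65 (SE 0.14, 95% interval -0.98 to -0.32, adjusted p = 0.0132). The call was lost without control replicate 2 (-0.63, adjusted p = 0.0507) and with the Y-linked covariate (-0.49, adjusted p = 0.121), each time with the direction kept. Ago2 meets Chrac1, a chromatin-remodelling subunit gene on the other strand, at its 3′ end, and the stretch with the miR-199a-5p match printed above lies in that overlap. Chrac1 rose, from 17.0, 15.6 and 15.9 to 20.2, 25.4 and 20.6 (log2 fold change 0.43, adjusted p = 0.0281), and reads from the shared stretch could be split between them only with strand.

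Ago1 (ENSMUSG00000041530, chr4:126435012-126468583) stood at 2.73, 2.62 and 2.12 in the controls and 1.98, 1.70 and 2.06 in TuD samples. Control replicate 3 lay just above the highest TuD library, and the log2 fold change of -0.31 (SE 0.13, 95% interval -0.61 to 0.00) did not pass (adjusted p = 0.118). Ago3 (ENSMUSG00000028842, chr4:126331704-126429556) was the lowest member, at 0.416, 0.196 and 0.356 in the controls and 0.402, 0.255 and 0.231 in TuD samples, on 61 to 131 reads a library. Its groups overlapped, and under the lower minimum its log2 fold change was -0.04 (adjusted p = 0.871). Ago3, Ago1 and Ago4 lie side by side on the minus strand of chromosome 4, with gaps of 5455 and 20957 bases, while Ago2 lies alone on chromosome 15. Ago4, no member but of the same family, stood at 1.01, 1.26 and 0.947 in the controls and 0.800, 0.727 and 0.845 in the TuD libraries; its groups did not overlap. It was too low for the main test and did not pass under the lower minimum (-0.28, adjusted p = 0.171; limma-voom -0.42, adjusted p = 0.142).

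Added up, the 4 Argonaute genes came to 7.46, 7.38 and 6.37 normalised FPKM in the controls and 5.20, 4.14 and 5.25 in the TuD libraries. Their makeup shifted as well: Ago2 made up 45.2 ± 1.03% of the sum in the controls and 38.1 ± 2.58% in TuD samples (SD, n = 3 each), and Ago1 35.1 ± 1.70% and 39.4 ± 1.46%. Ago2 was above Ago1 in all 3 controls, by a factor of 1.21, 1.27 and 1.39. In the TuD libraries the factors were 1.02, 0.861 and 1.03, so the genes were nearly level there. Shares and ratios within a library do not depend on its scaling. They were not tested, and 3 against 3 samples cannot give an exact permutation p below 0.1.

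**Figure D2:**
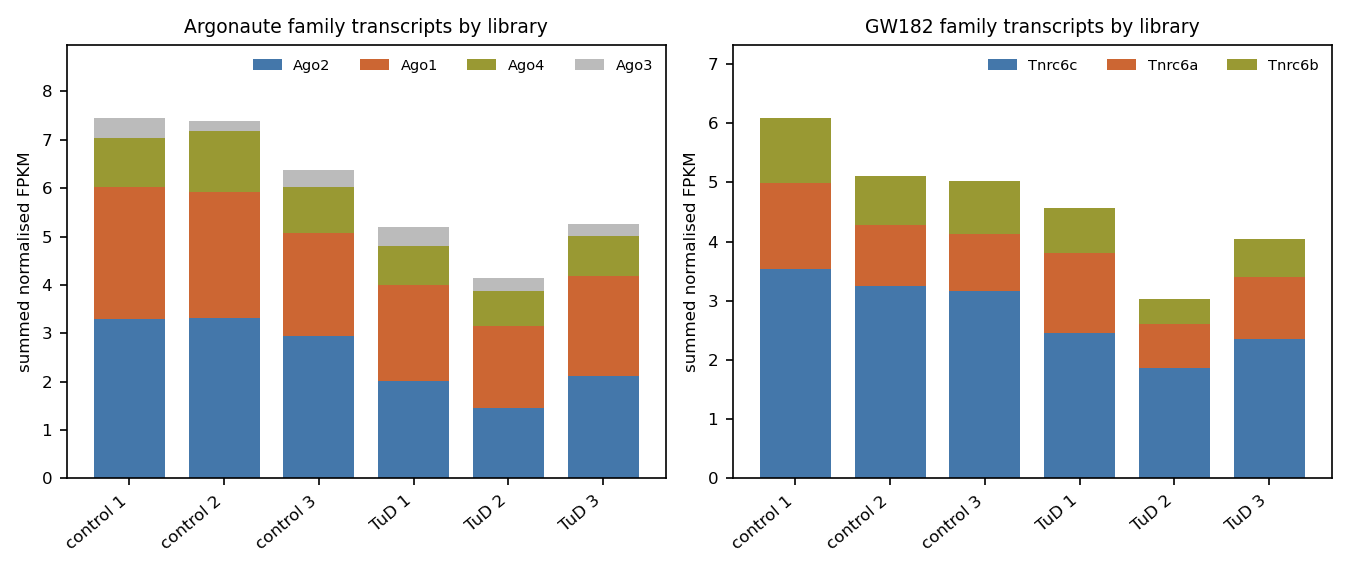
Normalised FPKM of the 4 Argonaute genes and the 3 GW182 genes in each of the 6 libraries, stacked so that the bar's height is the family sum. Argonaute sums were 6.37 to 7.46 in the controls and 4.14 to 5.25 in the TuD libraries, and GW182 sums 5.02 to 6.09 and 3.04 to 4.57.

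The GW182 members were low in these hearts. Tnrc6a (ENSMUSG00000052707, chr7:123123885-123195296) stood at 1.45, 1.03 and 0.957 in the controls and 1.35, 0.746 and 1.05 in the TuD libraries, overlapping throughout (log2 fold change -0.09, SE 0.19, 95% interval -0.53 to 0.35, adjusted p = 0.741). Tnrc6b (ENSMUSG00000047888, chr15:80711313-80941085) was at 1.11, 0.829 and 0.898 against 0.759, 0.427 and 0.643, with every TuD library below every control and 146 to 498 reads a library. Too low for the main test, it gave an exact two-sided permutation p of 0.1, the smallest possible here.

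Of the fits that took in Tnrc6b, only limma-voom called it lower. By limma on the log2(FPKM + 0.5) scale with the lower minimum the log2 fold change was -0.39 (adjusted p = 0.121). With the length trend also removed it was -0.27 (adjusted p = 0.164). Nor did Tnrc6b pass by limma without a filter (adjusted p = 0.226) or with a minimum of 0.5 (adjusted p = 0.119). Limma-voom on reads, which needs no pseudocount of that size, gave -0.65 (SE 0.20, adjusted p = 0.0367). In that fit 4 of the 10 members were lower, Xpo5, Ago2, Dgcr8 and Tnrc6b, against 12.2% of all genes. It had no length correction, and its share of lower calls among genes of like length was not computed. The family's most abundant gene was Tnrc6c, which is no member; it fell from 3.54, 3.25 and 3.17 to 2.45, 1.86 and 2.35 (log2 fold change -0.49, adjusted p = 0.0237), a call lost when control replicate 1, 2 or 3 (-0.45, -0.51 and -0.52) or TuD replicate 2 (-0.39) was left out (adjusted p up to 0.0728). It was also lost with the length correction (-0.31, adjusted p = 0.0650) and with the Y-linked covariate (-0.42, adjusted p = 0.153). Tnrc6c made up 61.6 ± 3.06% of the summed GW182 level in the controls and 57.7 ± 3.84% in TuD samples (SD, n = 3).

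Ordered by their mean level over all libraries, the members ran Tarbp2, Drosha, Xpo5, Ago2, Ago1, Dicer1, Tnrc6a, Dgcr8, Tnrc6b and Ago3. Neighbours in that order did not overlap over the 6 libraries in 3 of 9 cases: Drosha lay above Xpo5, Ago1 above Dicer1, and Tnrc6b above Ago3. Tarbp2 and Drosha, both near 10, changed places between libraries. Thus the nuclease of the nuclear step and the partner of Dicer1 were the abundant transcripts, while Dicer1 and Dgcr8 were at about 1 normalised FPKM.

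Most members are long genes. Their counted length runs from 4549 bases (Tarbp2) to 23677 (Tnrc6b), longer than 59.4% and 99.8% of the tested genes. Across all tested genes the difference between the groups moved with that length, from a median log2 fold change of 0.49 in the shortest decile to -0.17 in the longest. Lower calls made up 3.92% of the shortest decile, 23.3% of decile 9, which holds Dgcr8, Xpo5 and Ago1, 20.5% of decile 8 (Drosha), 16.5% of decile 6 (Tarbp2), and 22.8% of the longest, which holds Dicer1, Ago2, Ago3, Tnrc6a and Tnrc6b. Read against these deciles, 2 lower of 8 tested members is close to the share among genes of like length.

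With each library's trend with length removed, Xpo5 (-0.39, adjusted p = 0.0321) and Ago2 (-0.47, adjusted p = 0.0260) still passed, against 12.7% of all tested genes called lower. Dgcr8 was still lower in every TuD library but did not pass (-0.23, adjusted p = 0.208). It had entered the test only through the controls, so that separation is no evidence of a difference. The groups of Ago1 then overlapped (-0.16, adjusted p = 0.368), and the TuD values of Drosha lay above every control without passing (0.11, adjusted p = 0.447). Whether the length trend is technical was not tested.

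**Figure D3:**
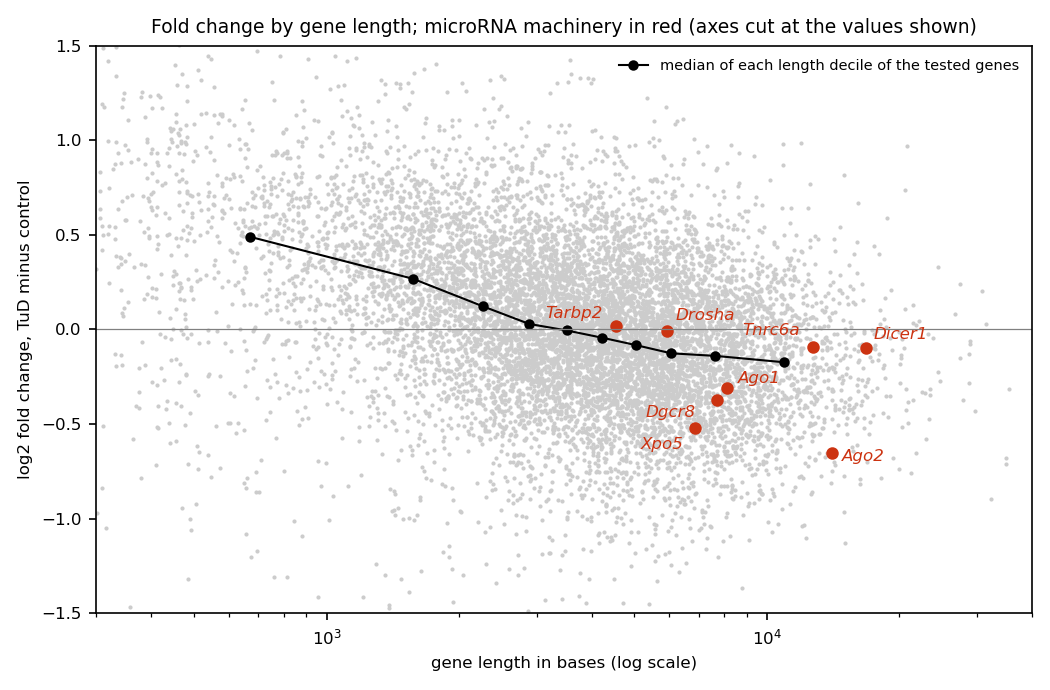
Log2 fold change (TuD minus control) of all tested genes against gene length on a logarithmic axis, with the 8 tested members marked and the medians of the length deciles joined. The medians run from 0.49 to -0.17, and Xpo5, Ago2, Dgcr8 and Ago1 lie below them.

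**Figure D4:**
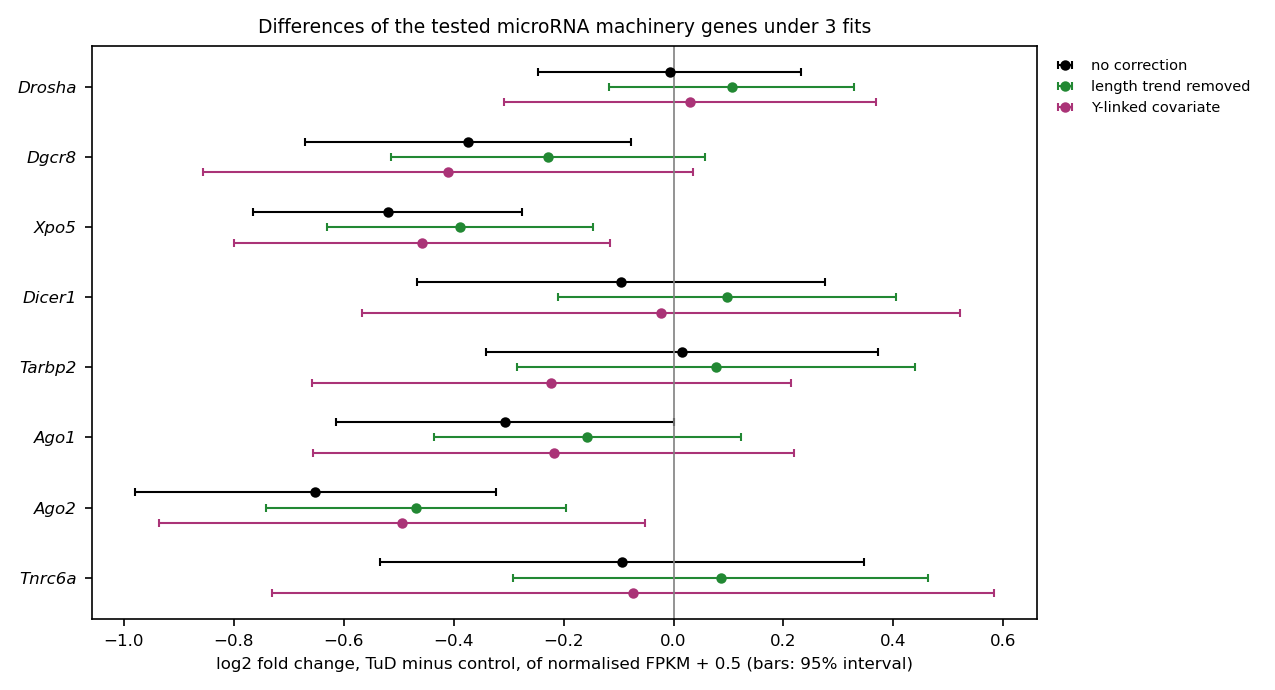
Log2 fold change of the 8 tested members with 95% intervals under 3 fits: uncorrected, with the length trend removed, and with the Y-linked covariate. For Xpo5 and Ago2 the unadjusted intervals lie below 0 in all 3, though their adjusted p-values with the covariate were 0.0798 and 0.121.

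Beyond the members, 8 lists were read: partners of this machinery, germline PIWI genes (3, 0 tested) and miR-199a host loci (6, 1 tested). Of their genes, all called partner genes here, 84 were found and 66 tested: 6 were higher, 6 lower and 54 did not pass. That is 9.09% in each direction, below the 14.8% higher and 14.2% lower of all tested genes, so the calls that follow describe single genes and not the lists. Their median log2 fold change was -0.01, that of all tested genes 0.01. Among 14 partners of the Microprocessor, Erh (7.78 ± 1.37 to 11.5 ± 1.24 normalised FPKM, log2 fold change 0.54, adjusted p = 0.0276), a small protein that binds the complex, and the splicing factor Srsf3, which binds primary transcripts (6.18 ± 0.505 to 8.86 ± 1.51, 0.48, adjusted p = 0.0341), rose (SD, n = 3 each). Khsrp, which binds the loops of some hairpins, fell from 10.6 ± 0.559 to 7.0 ± 0.807 (-0.57, adjusted p = 0.00973). Hnrnpa2b1 (0.25, adjusted p = 0.0883) and the other 10 did not pass.

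Of the Dicer partners, Adar, which edits double-stranded RNA, fell from 2.93, 2.84 and 2.74 to 1.53, 1.70 and 1.57 (-0.67, adjusted p = 0.00574). That is the smallest adjusted p of all the partner genes. Prkra, the other Dicer partner, did not pass (0.06, adjusted p = 0.787).

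Of 16 tested genes for Argonaute loading and target binding, 2 rose and 0 fell in the limma fit; at an unadjusted p under 0.05 2 were lower, and limma-voom called 0 lower. Ptges3, a co-chaperone of Hsp90, went from 12.6 ± 2.25 to 20.8 ± 2.03 (SD, n = 3; 0.71, adjusted p = 0.0103), and Wtip, a LIM protein of the Ajuba family, from 5.52 ± 0.802 to 7.89 ± 0.992 (0.48, adjusted p = 0.0342). Fxr2, an RNA-binding relative of Fmr1, did not pass (-0.29, adjusted p = 0.0892).

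Of 21 genes of deadenylation, decapping and decay, the deadenylase subunits Cnot6 (0.59, adjusted p = 0.0484) and Cnot7 (0.46, adjusted p = 0.0474) rose. They passed in 12 and 14 of 25 alternatives. With the correction for length and GC they fell short, at 0.35 (adjusted p = 0.163) and 0.13 (adjusted p = 0.504). Cnot6 entered the test through the TuD libraries (1.97, 1.59 and 1.47), since only replicate 1 of its controls (1.31, 0.660 and 0.915) reached the minimum. With the minimum at an FPKM of 0.5 neither Cnot6 (adjusted p = 0.0521) nor Cnot7 (adjusted p = 0.0530) passed by limma. Patl1 (7.59 ± 0.266 to 4.77 ± 0.542, -0.62, adjusted p = 0.00709) and Lsm14b (-0.46, adjusted p = 0.0123) fell. Of 11 genes for tailing and turnover none rose in the limma fit (2 at an unadjusted p under 0.05, and 2 by limma-voom), and Zswim8, the adaptor of a ligase that destroys Argonautes bound to certain targets, fell from 7.36 ± 0.593 to 5.20 ± 0.171 (SD, n = 3; -0.46, adjusted p = 0.0147). Papd4 (0.43, adjusted p = 0.0532), Tsnax (0.42, adjusted p = 0.0676) and Zc3h12a (-0.38, adjusted p = 0.107) did not pass.

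The PIWI genes, Argonaute relatives of the germline, were nearly unread: Piwil1 had no read in any library, Piwil2 had 2 to 18 and Piwil4 0 to 3. With the Y-linked covariate only Srsf3, Patl1 and Adar of the 12 called partner genes still passed. In that fit the group difference rests on TuD replicate 3 for every gene. Among the lost calls Khsrp (-0.60), Zswim8 (-0.50) and Lsm14b (-0.47) kept their size in it, while Wtip went to 0.28. Rescaled to TPM none of the 6 higher calls passed (0.12 to 0.38), and with the length and GC correction Zswim8 was at -0.18 (adjusted p = 0.196). Without control replicate 2 the calls that passed were Ptges3, Khsrp, Patl1 and Adar. Leaving out another library kept 6 (control replicate 3 or TuD replicate 2), 8 (TuD replicate 1) or 10 (control replicate 1 or TuD replicate 3) of the 12 calls, and removing the length trend kept 9, all but Zswim8, Wtip and Tnrc6c. Adar and Patl1 passed in each of 25 alternatives.

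**Figure D5:**
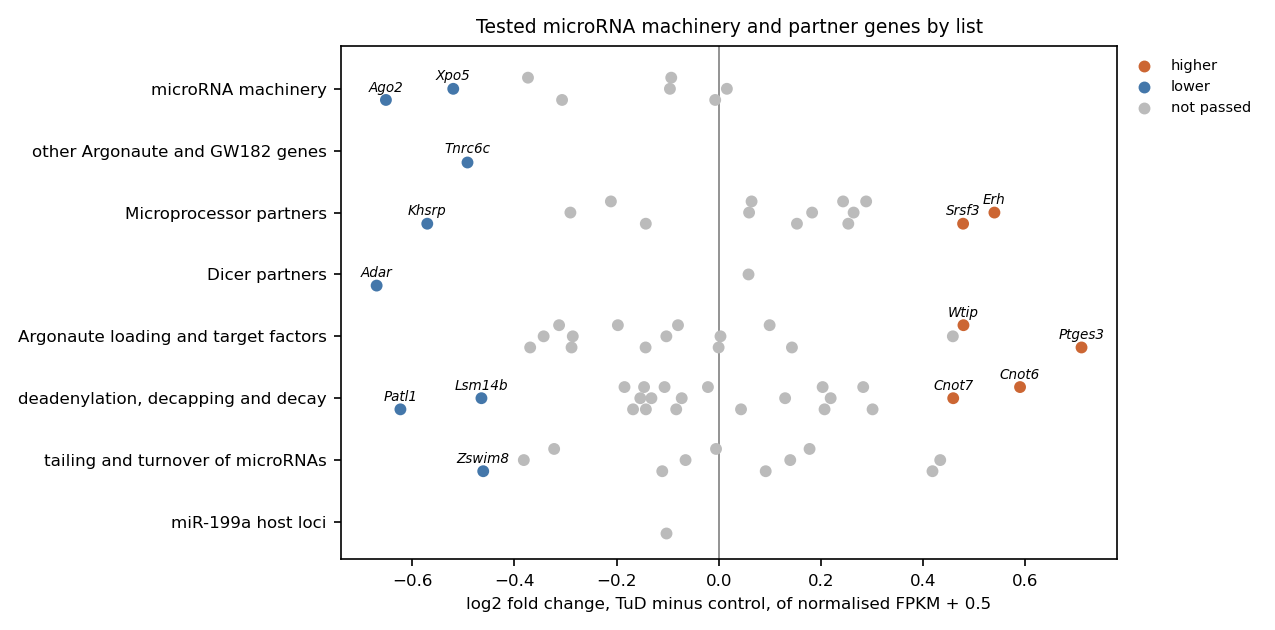
Log2 fold change (TuD minus control) of each tested gene by list, with the microRNA machinery in the top row; blue marks genes called lower, orange higher and grey not passed. Lower calls (Tnrc6c, Khsrp, Adar, Patl1, Lsm14b, Zswim8) and higher calls (Erh, Srsf3, Ptges3, Wtip, Cnot6, Cnot7) were 6 each among the partner genes.

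The loci that make miR-199a gave almost no reads in these libraries, which the labels do not describe as small RNA libraries. Mir199a-2 and its neighbour Mir214 had no reads in any library, and Mir199a-1 had 2 in control replicate 1, 1 in TuD replicate 3 and none elsewhere. Dnm3os, the long RNA from which Mir199a-2 and Mir214 are cut, had 1 to 14 reads per library. Its values were 0.0199, 0.00640 and 0.0133 normalised FPKM in the controls and 0.115, 0.0349 and 0.0227 in TuD samples, without overlap and too low to be tested. Dnm2, the protein-coding gene around Mir199a-1 on the other strand, was at 19.3, 21.1 and 20.8 and at 17.9, 20.4 and 18.7 (log2 fold change -0.10, adjusted p = 0.466). Dnm3, which lies on the other strand from Dnm3os, was at 0.114, 0.151 and 0.148 in the controls and 0.238, 0.209 and 0.228 in the TuD libraries, without overlap and too low to be tested. A decoy acts on the mature microRNA, which was not measured, so these values say nothing of how well miR-199a was held back.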

How the data were processed

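Myocardial RNA of 6 samples was sequenced, 3 per group, and samples were grouped by the labels. Total RNA was made into libraries with an NEBNext Ultra kit, per the labels' protocols. The submitters' processing notes name HISAT2 2.0.5, featureCounts 1.5.0-p3 and mm10; annotation release and strand setting are not given in the sources used here. The authors deposited FPKM and each gene's length. The product of FPKM and length was divided by a step fitted to each library. The result came out whole for 100% of values (tolerance 0.05 reads), which recovered read numbers and depths.

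Size factors (0.992 to 1.02) came from medians of ratios. The 10460 genes that reached an FPKM of 1 in 3 or more of 6 samples were fitted with limma 3.58.1 (R 4.3.3; mean-variance trend, 2 groups) on log2(normalised FPKM + 0.5), two-sided; p-values were Benjamini-Hochberg adjusted over these genes and read at 0.05. limma-voom on the recovered reads was an alternative. Length trends were removed by lowess (span 0.3). Tables, 3′ UTR searches and figures used Python 3.11.15, numpy 2.4.6, pandas 2.3.3, scipy 1.17.1 and matplotlib 3.10.9. Of the gene identifiers 54409 were in GENCODE M21. The fit was tested on simulated data.

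The members and gene lists were chosen with earlier results of these data known. All members were named, every gene of lists of up to 4, and otherwise the 4 tested genes with the smallest p-values, of which 1 is not reported here; Chrac1, Trmt2a and Ran were named after their values were seen. Replicate numbers did not pair the samples, since the correlations of same-numbered deviations were 0.0641, 0.0885 and -0.0555. No pair of libraries was identical.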

Additional observations from a re-analysis of the deposited data

How the results depend on the processing

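Across 25 alternatives Xpo5 passed in 24 (log2 fold change -0.92 to -0.34) and Ago2 in 23 (-1.08 to -0.44), always lower; Dgcr8 passed in 5 (-0.78 to -0.22) and Ago1 in 1 (-0.69 to -0.10). Drosha, Dicer1, Tarbp2 and Tnrc6a passed in none. Rescaled to TPM, which shifted the overall median difference to -0.36, 4 members were lower, with 4202 of all tested genes lower and 438 higher, and 27 partner genes lower and 0 higher (1 higher at an unadjusted p under 0.05, limma); the level order then had 1 pair of neighbours apart, not 3. With the Y-linked covariate 0 members were lower (lower calls over all tested genes 543, higher 640; partner genes 3 lower, 1 higher). In that limma fit the log2 fold changes of Xpo5 and Ago2 were -0.46 and -0.49. Limma-voom was not run with the covariate. With the covariate the group difference rests on TuD replicate 3. Without a filter all genes gave 947 lower and 989 higher, and partner genes 2 higher. The length correction gave 11 higher partner genes, with 1196 of all tested genes higher. The correction for length and GC gave 954 higher genes and 3 higher partner genes. Limma-voom with the length correction gave 14 higher partner genes, with 1327 of all tested genes higher. limma-voom with the filter at FPKM 0.2 gave 4 lower members. The limma-voom fits with a length correction or that filter, and the fits at FPKM 0.2, were chosen after seeing the data. Leaving out 1 library at a time gave 1 to 2 lower and 0 higher members, 742 to 1598 lower and 888 to 1703 higher genes, and 3 to 8 lower and 1 to 7 higher partner genes. Counted with 8-base matches, 2 members, not 4, held a miR-199a match. With the replicate number as a block (replicate block) 2 members were lower (Xpo5, adjusted p = 0.0244; Ago2, 0.0278), with 1195 genes lower and 1447 higher. The causes of these shifts were not tested. Reads per library were fewest for Ago3 (61 to 131) and Dgcr8 (88 to 184).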

Other observations

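Fmr1, whose protein binds target RNAs and Argonaute, was too low for the main test and falls outside the rule for named genes; it was picked after its values were seen. It stood at 0.270, 0.175 and 0.188 normalised FPKM in the controls and 0.518, 0.486 and 0.508 in TuD samples, with every TuD library above every control. These values rest on 31 to 76 reads per library. Fmr1 was chosen for this pattern, and only control replicate 1 among the controls reaches the lower minimum of 0.2, so no test is given.

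Reads also fell on annotated microRNA hairpins, although the labels do not describe small RNA libraries. Of 2207 hairpin genes 113 had reads and 19 were tested, of which 5 were called higher and 2 lower. Of these calls, Gm22918, Mir133a-1 and Mir7031 reached the minimum only in TuD libraries and Mir1932 only in controls, on 0 to 17 reads, so those 4 differ by the filter itself. In the decile of the shortest genes, where these belong, 39.3% of all tested genes were called higher and 3.92% lower. Gm44349 had 48, 85 and 79 reads in the controls and 24, 16 and 34 in TuD libraries (log2 fold change -1.19, adjusted p = 0.0122). Mir133a-2, a hairpin of a heart and skeletal muscle microRNA, had 17, 7 and 7 reads in the controls and 46, 23 and 15 in the TuD libraries (log2 fold change 1.63, adjusted p = 0.0288). Mir133a-1, its paralog, had 1, 0 and 1 reads in the controls and 5, 7 and 6 in TuD libraries, counts too few to give a fold. In that decile the median log2 fold change was 0.49. The source of these reads was not tested.

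Of 6 host transcripts of other microRNAs 1 was tested, Mir22hg, and it did not pass; those named were picked after their values were seen. Mir22hg stood at 2.95, 0.765 and 0.902 in the controls and 4.21, 2.16 and 4.36 in TuD samples, overlapping in control replicate 1 (1.10, adjusted p = 0.0657). Mir99ahg was at 0.250, 0.252 and 0.202 against 0.393, 0.677 and 0.419, without overlap and not tested. Mir142hg went the other way, with 1, 2 and 1 reads in the controls and 0 in each TuD library. Mir155hg, Mir17hg and Mir670hg had at most 5 reads in any library, and their groups overlapped.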
